A study of Mus musculus with 1989 samples.

Results

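Thymocytes that carry neither CD4 nor CD8, the double-negative (DN) cells, were compared by chromatin accessibility with double-positive (DP) and single-positive (CD4 and CD8) thymocytes. The regions described here were chosen by a rule on the measured values. A peak belonged to the set when it was open in 15 or more DN sorted cells and when the share of open DN cells was at least 2 times the share in each of the DP, CD4 and CD8 sorts. Of 138317 peaks, 14907 were open in 15 or more DN cells and 766 met the whole rule, which was 5.14% of those 14907. Peaks were 4000 bp wide, so neighbours could overlap, and the 766 members formed 715 separate regions.

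The cells came from the thymus of male C57BL/6 mice, labelled as 7 weeks of age, with no treatment given. Single-cell ATAC-seq (scATAC-seq), in which a transposase cuts open DNA and the cuts are sequenced cell by cell, gave counts per peak for the DN, DP, CD4 and CD8 sorts and for unsorted cells labelled T. Droplet-based single-cell RNA-seq (scRNA-seq) of thymocytes was available from 1 library. No label named the animal of a cell, so each sort counted as 1 sample and no test between sorts was made.

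Cells with a total of 1000 or more counts were used: 175 of 182 DN, 116 of 125 DP, 96 of 119 CD4, 91 of 116 CD8 and 1075 of 1084 T-labelled cells from 36 plates. The median total was 3657 counts in DN and 3959 in DP cells, and the CD4, CD8 and T-labelled medians lay above these, up to 5805. Over all 138317 peaks, however, the mean share of open cells was highest in DN, at 3.58%, against 2.48% in DP, 3.36% in CD4, 3.25% in CD8 and 3.48% in T-labelled cells, and between 0.678% and 0.69% in all of them after thinning every cell to 1000 counts. Before any choice of peaks, a DN cell thus had more open peaks on average than a DP cell. The numbers in the cell labels fell into series that the labels do not explain. DN cells were of series 1000, 2000, 4000, 31000 and 32000, with median totals between 1263 and 10982.5 counts, and no 2 cells had identical counts. The series 4000 and 31000 also occurred in the 3 other sorts, whereas series 1000, 2000 and 32000 held DN cells only, so that in these 3 series the sort and the series cannot be told apart.

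DN thymocytes pass through Notch-driven commitment to the T lineage and through rearrangement of the T cell receptor β, γ and δ loci before most of them become DP cells. A gate on the absence of CD4 and CD8 also lets through γδ T cells, natural killer (NK) cells and other cells without these coreceptors. Distal open regions tend to be specific to a stage, whereas promoters are often open in many cell types.

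The sort labels were checked at the coreceptor genes. At least 1 of the 19 peaks within 5 kb of a Cd8a start was open in 22.3% of DN, 55.2% of DP, 19.8% of CD4 and 48.4% of CD8 cells. The 14 peaks at Cd4 were open in 24.0% of DN, 30.2% of DP, 41.7% of CD4 and 36.3% of CD8 cells. DN cells were thus lowest at Cd4 and far below DP and CD8 cells at Cd8a. Genes that mark early DN thymocytes were not highest in the DN sort. Peaks at Il2ra (CD25) were open in 12.6% of DN, 10.3% of DP, 12.5% of CD4 and 16.5% of CD8 cells, and after thinning in 0.571%, 4.31%, 1.04% and 5.49%. Peaks at Ptcra, the pre-T cell receptor α chain, were open in 9.14% of DN, 11.2% of DP, 3.12% of CD4 and 5.49% of CD8 cells. For this reason the cells are called DN sorted cells here, with no stage within the DN compartment.

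The sequences at the center of 6 member regions are shown. They were taken from the 25 regions with the largest difference between DN cells and the highest other sort, have no protein-coding start within 2 kb of the center, and hold recognition motifs of lymphoid factors in the middle of the peak. They are the region in an intron of Vmp1 (chr11:86586853-86587152), which had the largest excess of all members, the region nearest Fam241a (chr3:127926812-127927111), the intronic region of Zmynd8 (chr2:165793275-165793574), the region nearest Snx9 (chr17:5801956-5802255), a region in the T cell receptor γ locus (chr13:19300464-19300763), which is mostly not unique in the genome, and the region nearest Irs2 (chr8:11098377-11098676), which had no open DP, CD4 or CD8 cell. Each is the central 300 bases of the peak, 5′ to 3′ on the plus strand of GRCm38 as given by RefSeq, with capitals for every match to 1 of the 15 motifs listed further down.
Vmp1: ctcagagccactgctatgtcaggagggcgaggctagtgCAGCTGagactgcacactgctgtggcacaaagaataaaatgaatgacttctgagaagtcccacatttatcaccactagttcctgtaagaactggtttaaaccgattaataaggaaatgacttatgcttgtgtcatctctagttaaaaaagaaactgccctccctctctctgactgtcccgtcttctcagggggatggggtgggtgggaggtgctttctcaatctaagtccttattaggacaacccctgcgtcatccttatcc
Fam241a: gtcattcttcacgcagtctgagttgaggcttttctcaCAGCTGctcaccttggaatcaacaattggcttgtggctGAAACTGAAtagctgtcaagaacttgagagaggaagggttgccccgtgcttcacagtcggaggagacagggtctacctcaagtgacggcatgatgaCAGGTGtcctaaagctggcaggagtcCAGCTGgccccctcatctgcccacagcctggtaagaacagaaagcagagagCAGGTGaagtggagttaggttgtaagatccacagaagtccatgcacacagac
Zmynd8: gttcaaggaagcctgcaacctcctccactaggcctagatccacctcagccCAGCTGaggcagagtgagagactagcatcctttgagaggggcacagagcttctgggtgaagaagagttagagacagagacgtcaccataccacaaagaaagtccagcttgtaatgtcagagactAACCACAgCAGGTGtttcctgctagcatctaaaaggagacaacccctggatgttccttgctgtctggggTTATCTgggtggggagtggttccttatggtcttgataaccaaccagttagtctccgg
Snx9: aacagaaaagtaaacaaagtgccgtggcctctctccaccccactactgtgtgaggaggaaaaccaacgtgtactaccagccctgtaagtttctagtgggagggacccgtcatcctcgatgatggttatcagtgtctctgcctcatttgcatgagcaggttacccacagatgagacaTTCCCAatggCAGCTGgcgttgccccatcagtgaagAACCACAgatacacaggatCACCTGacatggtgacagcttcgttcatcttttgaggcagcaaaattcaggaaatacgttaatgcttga
T cell receptor γ locus: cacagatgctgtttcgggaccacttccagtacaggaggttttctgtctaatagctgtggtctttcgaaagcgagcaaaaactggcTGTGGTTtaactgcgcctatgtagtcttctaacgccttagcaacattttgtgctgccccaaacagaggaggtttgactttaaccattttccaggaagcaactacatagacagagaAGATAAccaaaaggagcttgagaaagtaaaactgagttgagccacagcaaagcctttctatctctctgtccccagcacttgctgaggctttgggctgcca
Irs2: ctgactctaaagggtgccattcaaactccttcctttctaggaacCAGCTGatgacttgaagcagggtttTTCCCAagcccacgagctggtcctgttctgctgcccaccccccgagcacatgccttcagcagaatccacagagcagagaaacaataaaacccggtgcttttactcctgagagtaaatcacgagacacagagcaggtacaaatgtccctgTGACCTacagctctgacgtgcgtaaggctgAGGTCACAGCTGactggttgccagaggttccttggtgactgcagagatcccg
The Vmp1 sequence held 1 E-box of the form CAGCTG, and the Fam241a sequence held E-boxes of both forms and an Irf match. The Zmynd8 and Snx9 sequences each held a Runx match, read here on the minus strand as AACCACA, between E-boxes. The sequence in the T cell receptor γ locus held a Runx and a Gata match, and the Irs2 sequence held CAGCTG on both sides of an Rbpj match, once directly after a Ror match.

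Among the members, the share of open DN cells ran from 8.57% (15 cells) to 27.4% (48 cells), with a median of 18 open DN cells. The median share was 10.3% in DN, 2.59% in DP, 3.12% in CD4 and 3.3% in CD8 cells. These values follow from the rule and are given as a description. The ratio to the highest other sort was under 2.5 at 360 members and 3 or more at 249. At 9 members no DP, CD4 or CD8 cell was open, which allows shares of up to 2.59% in DP, 3.12% in CD4 and 3.3% in CD8 cells (3 cells each, counting error only). After every cell was thinned to 1000 counts, the DN share was above each other sort at 600 members and at least 2 times each other sort at 358. The threshold itself fell between near-identical peaks. The members nearest Cnot6l, Abcb9 and Cpt1c stood at a ratio of 2.006 (15.4% of DN cells against 7.69%), and the peaks nearest Synrg, Clic4 and Usp18 were left out at 1.993 (13.1% against 6.59%).

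Of the 25 regions with the largest difference between the DN share and the highest other sort, 24 are described here. All values are shares of cells with the peak open, and bounds in brackets are exact binomial 95% intervals that cover counting error only. Coordinates are those of the peak in GRCm38, counted from 1. The leading region (chr11:86585003-86589002) lay in an intron of Vmp1, which encodes a membrane protein of autophagy, and the nearest start of any gene type was that of the microRNA gene Mir21a. It was open in 25.1% of DN cells (18.9 to 32.2), 0.862% of DP, 7.29% of CD4 and 6.59% of CD8 cells. The region in an intron of Plekha2 (chr8:25066162-25070161), nearest to the Htra4 start, was open in 24.6% of DN cells, 6.9% of DP, 6.25% of CD4 and 9.89% of CD8 cells. An intronic region of Ikzf3 (chr11:98468727-98472726), the gene of the lymphoid zinc-finger factor Aiolos, was open in 17.1% of DN cells (11.9 to 23.6), 4.31% of DP, 4.17% of CD4 and 3.3% of CD8 cells.

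Several regions were open almost only in DN cells within the sorted cells. The region nearest Fam241a (chr3:127924962-127928961), inside a long noncoding gene, was open in 24 DN cells (13.7%) and in 1 cell of each other sort. The region between genes at -90069 bp from the start of Irs2 (chr8:11096527-11100526), which encodes an insulin receptor substrate, was open in 20 DN cells (11.4%, 7.12 to 17.1) and in 0 of 116 DP, 0 of 96 CD4 and 0 of 91 CD8 cells. The intronic region of Kank1 (chr19:25309290-25313289) had the same counts, but 11 of its 20 open DN cells were of the deep series 1000, and after thinning to 1000 counts no DN cell was open there. The region at -1582 bp from the start of Cryab (chr9:50747743-50751742), the gene of a small heat shock protein, was open in 22 DN cells (12.6%) and in 1 CD8 cell. A region near Snx9 (chr17:5800106-5804105) was open in 25 DN cells (14.3%), 2 DP, 2 CD4 and 1 CD8 cell.

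The other members with no open DP, CD4 or CD8 cell had 15 to 17 open DN cells. They were the regions nearest Pappa2, Gdf7, Gpam (the latter 401790 bp from its start) and Lyn, an intronic region of Tmem108 and 2 overlapping peaks nearest Tha1. Of the open DN cells, 10 and 9 of 15 at the Tha1 peaks and 9 of 17 at Gpam were of series 32000, which held DN cells only. Lyn encodes a Src family kinase. In T-labelled cells the region nearest Pappa2 was open in 0 of 1075 cells, and the others in at most 1.4%. The 0 allows up to 0.279% by the limit of 3 cells and 0.343% by the exact interval. Members also lay in groups near some genes. Stard3nl was the nearest gene of 5 members, Slc9a9 and Tmem108 of 4 each, and Pde10a, Cpn2, Akap11, Mical2, Slc39a11, Cirbp, Nck2, Xdh and Ikzf2 of 3 each, some of which overlap.

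The intronic region of Cables1 (chr18:11929857-11933856) showed a graded order, with 22.3% of DN, 11.0% of CD8, 6.25% of CD4 and 0 of 116 DP cells open. Intronic regions of Zmynd8 (chr2:165791425-165795424), a reader of acetylated histones, and Rpgrip1 (chr14:52138778-52142777) were open in 21.1% and 16.6% of DN cells, and in at most 8.79% and 4.4% of another sort. The remaining named regions away from starts lay in or near 2010111I01Rik, Mc2r, Bid (a pro-apoptotic Bcl2 family member) and Slc39a11, with DN shares from 12.0% to 17.1%, and in Tex14, with 20.0% of DN, 6.9% of DP, 8.33% of CD4, 8.79% of CD8 and 17.9% of T-labelled cells. The region of Mc2r lay at -262833 bp from its start, so a nearest gene is a name for a region here and not its target.

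**Figure D1:**
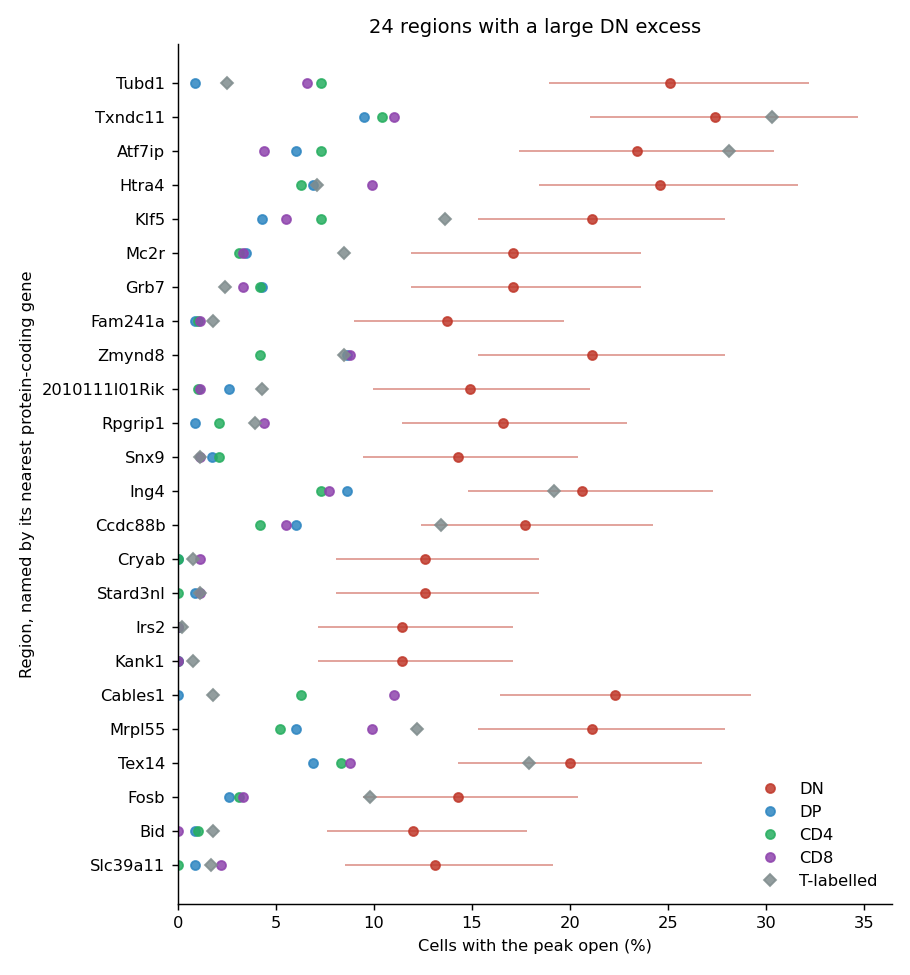
Share of cells with the peak open (x axis, %) in 24 of the 25 regions with the largest DN excess, each named by its nearest protein-coding gene. Circles are the sorts, diamonds the T-labelled cells, and lines the exact 95% intervals of the DN share. In the Vmp1 intron (nearest Tubd1) the DN share is 25.1% and the T-labelled share 2.51%, while at Txndc11 and Atf7ip the T-labelled cells lie above the DN cells.

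Of these 24 regions, 4 were made mostly of sequence that is not unique. The share of 32-base words in the central 500 bases that occurred elsewhere in the primary assembly was 73.3% at Txndc11, 70.0% at Tex14, 66.7% at Mc2r and 63.3% at the region in the T cell receptor γ locus. Reads from such copies cannot be told apart, so these 4 regions are uncertain. Over all members, 8 of 766 (1.04%) had most of their words elsewhere, against 75 of 14141 other peaks open in 15 or more DN cells (0.53%).

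The unsorted, T-labelled cells took no part in the rule and gave an independent readout. The DN shares they are set beside are high, and the DP shares low, by choice. Their median share at the members was 3.26%, beside medians of 10.3% in DN, 2.59% in DP, 3.12% in CD4 and 3.3% in CD8 cells. After thinning the medians were 0.558% in T-labelled, 2.29% in DN, 0.862% in DP and 0.0% in CD4 and CD8 cells. A DP share of 0.862% is 1 open cell, so these medians move in coarse steps. The mean shares were 5.15% in T-labelled and 2.66% in DP cells. After thinning they were 0.958% and 0.674%, so the order of the means did not turn. At the 14141 other peaks open in 15 or more DN cells, which are the comparison set from here on, the T-labelled median was 13.7% and the DN median 13.1%. The T-labelled share was at most 0.5 times the DN share at 519 members (67.8%) and at 2505 peaks of the comparison set (17.7%). It reached or passed the DN share at 79 members (10.3%) and at 7172 peaks of the comparison set (50.7%). After thinning to 1000 counts per cell it did so at 134 members (17.5%) and at 7238 peaks (51.2%).

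The members split by their distance from a transcription start. The peak center lay within 2 kb of the start of a protein-coding gene at 312 members (40.7%), against 62.2% of the comparison set and 26.0% of all peaks. A further 244 members (31.9%) had their center in an intron and 194 (25.3%) between genes, against 18.3% and 18.0% of the comparison set. Members over 2 kb from a start had a median GC content of 49.1% in the central 500 bases, close to the 50.2% of the comparison set, and members at starts had 60.7% against 61.6%.

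At the 454 members away from starts the mean share was 10.9% in DN cells and 3.19% in T-labelled cells, beside 2.27% in DP, 2.44% in CD4 and 2.9% in CD8 cells. At the 312 members at starts it was 11.3% in DN and 8.0% in T-labelled cells, beside 3.22% in DP, 3.42% in CD4 and 3.3% in CD8 cells. The T-labelled share reached the DN share at 8 members away from starts (1.76%) and at 71 members at starts (22.8%), and after thinning at 37 (8.15%) and 97 (31.1%). In the comparison set it did so at 30.0% of peaks away from starts and at 63.3% of peaks at starts. It was at most 0.5 times the DN share at 391 members away from starts (86.1%, against 35.0% of the comparison set) and at 128 members at starts (41.0%, against 7.21%). The high DN shares of the members, which the rule chose, enter both. After thinning, the mean shares at members away from starts were 2.25% in DN and 0.593% in T-labelled cells, and at members at starts 2.06% and 1.49%.

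**Figure D2:**
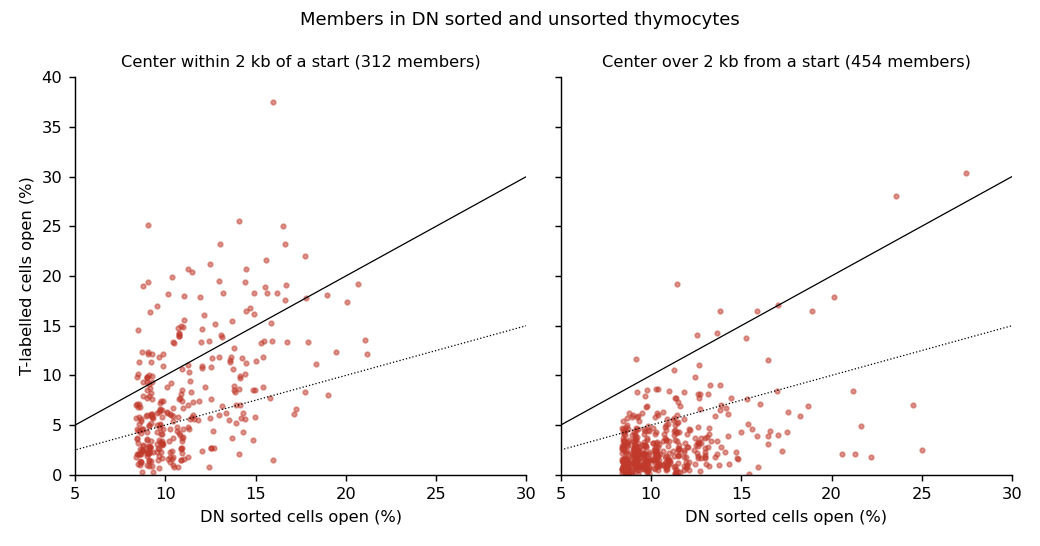
Share of T-labelled cells open (y axis, %) against the share of DN sorted cells open (x axis, %) for the 312 members at starts (left) and the 454 members away from starts (right). Each point is 1 member, spread slightly sideways, the solid line marks equal shares and the dotted line a T-labelled share of 0.5 times the DN share. On or under the dotted line lie 86.1% of the members away from starts (35.0% of the comparison set) and 41.0% of those at starts (7.21%).

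Among the members at starts that T-labelled cells opened at least as often as DN cells, the promoter of Ezh2, which encodes the histone H3 lysine 27 methyltransferase, was open in 37.5% of T-labelled, 16.0% of DN and 6.9% of DP sorted cells. The promoter of Set was open in 25.0%, 16.6% and 7.76%, and that of Klf4, a Krüppel-like transcription factor, in 23.3%, 13.1% and 2.59%. The T-labelled share was at least 2 times the DP share at 178 members at starts (57.1%) and at 33.7% of the comparison set at starts. The rule holds the DP share at no more than 0.5 times the DN share, so DP values at the members are low by choice and this difference is a description. T-labelled and sorted cells share no label series, so sorting and series cannot be told apart.

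At all 6 regions at a start among the described regions, the T-labelled share lay between the DN and the DP share. The Klf5 promoter (chr14:99296614-99300613) was open in 21.1% of DN cells, 4.31% of DP, 7.29% of CD4, 5.49% of CD8 and 13.6% of T-labelled cells. The Ing4 promoter was open in 20.6% of DN and 19.2% of T-labelled cells, with 8.62% in DP. The Fosb promoter, which belongs to a subunit of the AP-1 factor, was open in 14.3% of DN, 9.77% of T-labelled and 2.59% of DP cells. At the Ccdc88b and Mrpl55 promoters the T-labelled shares were 13.4% and 12.2%. A region in an intron of Zc3h7a (nearest Txndc11, and mostly of repeated sequence) and a region at -50198 bp from Atf7ip were not promoters, but were open in 30.3% and 28.1% of T-labelled cells beside 27.4% and 23.4% of DN cells. At the Cryab region, which is within 2 kb of a start, the T-labelled share was 0.744%. Away from starts it was 0.186% at the Irs2 region, 0.744% at Kank1, 1.12% at Snx9 and 1.77% at Fam241a. These 5 are examples with low T-labelled shares and were named for them.

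Because the DN cells chose the members, their own share is inflated. The choice was therefore repeated without 1 DN label series at a time and read in the DN cells of the series left out and in the T-labelled cells, which neither choice used. The quantity was the relative openness, the mean share at the chosen peaks divided by the mean share at the other peaks open in 15 or more DN cells. Over all chosen peaks it lay between 0.44 and 0.492 in the 5 DN series left out and between 0.325 and 0.36 in the T-labelled cells. For comparison, the median over DN cells was 0.706 when the cells that chose the members were read.

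The distance from the T-labelled cells was larger away from starts. There the relative openness in the DN series left out was 0.532 (series 1000), 0.551 (2000), 0.594 (4000), 0.482 (31000) and 0.55 (32000), and in T-labelled cells 0.302, 0.293, 0.294, 0.32 and 0.351. The 5 DN values did not overlap with the T-labelled values. At starts the DN values were 0.454, 0.467, 0.412, 0.473 and 0.498 and the T-labelled values 0.457, 0.453, 0.404, 0.425 and 0.416, so that the ranges overlapped and in series 1000 the T-labelled value was the higher. As an alternative added after seeing the data, peaks were chosen as before and the cells read were thinned to 1000 counts. Then the DN values away from starts ran from 0.4 to 0.616 and the T-labelled values from 0.261 to 0.308. At starts they ran from 0.294 to 0.427 and from 0.351 to 0.406. When the choice itself was made in thinned cells, 1 to 10 peaks were left, and away from starts (1 to 3 peaks) the T-labelled value was the higher in each of the 5 series.

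**Figure D3:**
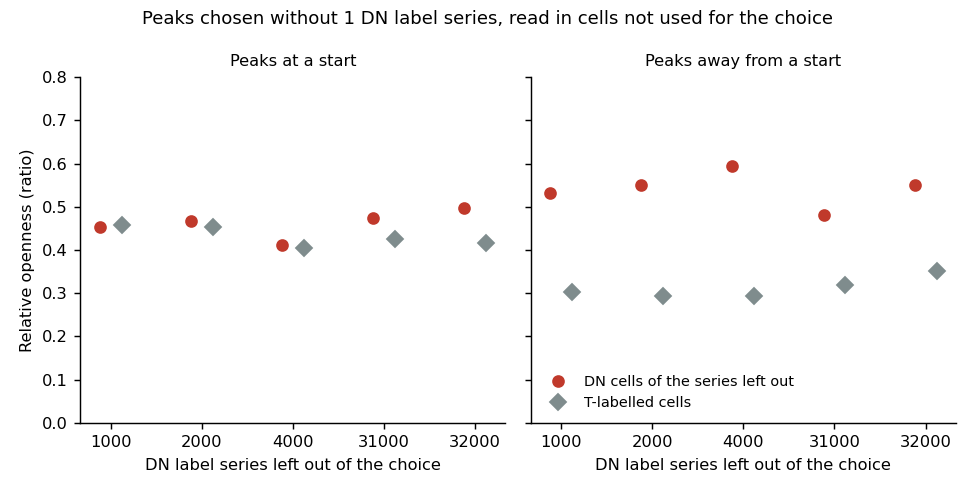
Relative openness (y axis, ratio) of peaks chosen without 1 DN label series (x axis), read in the DN cells of that series (circles) and in T-labelled cells (diamonds). Peaks at starts are on the left and peaks away from starts on the right. Away from starts the DN values lie between 0.482 and 0.594 and the T-labelled values between 0.293 and 0.351, whereas at starts the ranges overlap.

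The series 31000 could be left out of all sorts at once, which gave 516 peaks, 453 of them members. Read in the cells of that series, the relative openness of peaks away from starts was 0.529 in 23 DN, 0.385 in 22 DP, 0.354 in 41 CD4 and 0.368 in 14 CD8 cells. At starts it was 0.441 in DN, 0.374 in DP, 0.379 in CD4 and 0.373 in CD8 cells. Leaving series 4000 out of all sorts left 41 CD4 and 14 CD8 cells with median totals of 1543 and 1519 counts for the choice, and 2319 peaks were chosen, of which 300 were members. At those peaks away from starts the relative openness in series 4000 was 0.761 in DN, 0.519 in DP, 0.691 in CD4 and 0.649 in CD8 cells. At starts it was 0.729 in DN, 0.656 in DP, 0.723 in CD4 and 0.695 in CD8 cells. By this ratio DN was the highest sort in these 4 readings, with almost no distance from CD4 at starts in series 4000. The open shares themselves did not follow this order in series 4000. There the mean share at the chosen peaks away from starts was 13.5% in DN and 14.7% in CD4 cells. At starts it was 16.3% in DN and 18.3% in CD4 cells.

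Single DN cells differed widely in how many members they opened. The relative openness per cell ran from 0.149 to 1.26 with a median of 0.706 (SD 0.213 over 175 cells), and 35 DN cells (20.0%) were under 0.5. By label series the DN medians were 0.734, 0.661, 0.563, 0.535 and 0.761. The medians of DP, CD4 and CD8 cells were 0.221, 0.175 and 0.183. In T-labelled cells the median was 0.29, and between plates it ran from 0.263 to 0.328. The highest of the 1075 T-labelled cells stood at 0.66. The 0.44 to 0.492 of DN series left out of the choice are ratios of group means at other chosen peaks. A single cell cannot be set against them directly. Away from starts the DN median was 0.779 and the T-labelled median 0.271. All these sorted cells took part in the choice of members, so the distance between the sorts follows from the rule.

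**Figure D4:**
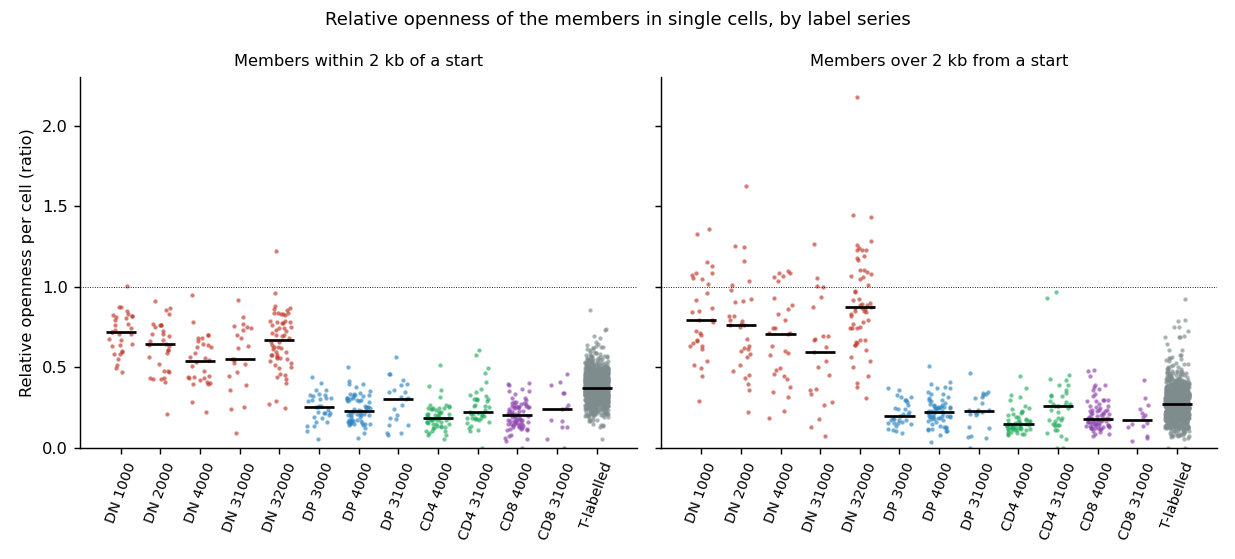
Relative openness of the members per cell (y axis, ratio) for each sort and label series and for T-labelled cells, for members at starts (left) and away from starts (right). Each dot is 1 cell, the horizontal bar is the median and the dotted line marks a ratio of 1. DN cells spread most away from starts, where their median over all series, in cells that chose the members, is 0.779, against 0.22 in DP, 0.167 in CD4 and 0.18 in CD8 cells.

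The members also drew unevenly on the DN series. 1 series held most of the open DN cells at 99 members (12.9%) and at 666 peaks of the comparison set (4.71%). All 5 series had an open cell at 433 members (56.5%) and at 76.4% of the comparison set. Among the choices without 1 series, the number of peaks moved most without the deepest series, 1000. The minimum of 15 open DN cells was kept, so fewer peaks reached it than the 14907 of the main choice. Without series 1000 the rule gave 214 of 8882 such peaks, 176 of them members. Without series 31000 it gave 918 of 13715, 650 of them members. Without series 32000 the number was 647 of 10092, but 308 of the 647 were members, so most of the choice changed.

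Members near genes of known roles were counted from lists of marker and pathway genes, and their share among the peaks of a list open in 15 or more DN cells was set beside the 5.14% over all such peaks. No list was tested. Of the early progenitor genes, 3 of 9 peaks were members. They lay in an intron of Bcl11a (chr11:24130053-24134052, 10.3% of DN, 0.862% of DP, 3.12% of CD4 and 3.3% of CD8 cells), at 119002 bp from Mycn (chr12:12819614-12823613, 8.57% of DN, at most 1.04% elsewhere) and in an intron of Erg (chr16:95453988-95457987, 9.14% of DN, at most 3.45% elsewhere). These are transcription factor genes of progenitors. In T-labelled cells the shares were 1.12%, 0.651% and 1.58%.

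Of the Notch and pre-T cell receptor genes, 2 of 35 peaks were members and both were nearest Hes1, the gene of a repressor that Notch signalling switches on. The Hes1 promoter (chr16:30063248-30067247) was open in 9.71% of DN, 2.59% of DP, 1.04% of CD4, 3.3% of CD8 and 3.53% of T-labelled cells. A region at -153960 bp from the start was open in 9.71% of DN cells, 0.862% of DP, 0 of 96 CD4 and 1.1% of CD8 cells. Of the T identity factors, 4 of 93 peaks were members. At Gata3 (chr2:9794212-9798211) and Sox4 (chr13:28941017-28945016), regions 82388 and 10696 bp from the start were open in 9.14% and 10.9% of DN cells and in at most 3.3% of another sort. A region 53939 bp from the Runx3 start was open in 16.0% of DN and 6.03% of DP cells, but in 16.5% of T-labelled cells.

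The γδ T cell list gave 2 of 17 peaks, in an intron of Sox13 (10.9% of DN cells, at most 3.3% of another sort) and, with Maf as nearest gene but 479612 bp from its start, in an intron of Wwox (9.71% of DN, at most 2.59% of another sort). Sox13 and Maf encode transcription factors of γδ T cells. The T cell receptor γ locus itself held 5 members, from chr13:19217857-19221856 to chr13:19354887-19358886. All had Stard3nl as nearest protein-coding gene and a γ constant or variable gene as nearest gene of any type. No share among the peaks of this locus is given here, so the count cannot be set beside the 5.14% over all peaks. The DN shares of these members were between 8.57% and 12.6%. Their shares were at most 1.72% in DP, 4.17% in CD4, 3.3% in CD8 and 4.09% in T-labelled cells. The pair of overlapping peaks near Tcrg-C2 had 0 open cells in the DN series 32000, although that series held 58 of the 175 cells, and 8 and 11 in series 1000. The member near Tcrg-C1 and both near Tcrg-C2 had 63.3% to 73.3% of their words elsewhere in the genome and are uncertain. A further member lay at Trdv2-2 in the α/δ locus, with 12.0% of DN, 2.59% of DP, 5.21% of CD4 and 5.49% of CD8 cells.

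The NK and innate-like list gave 3 of 29 peaks. The Ifng promoter (chr10:118438860-118442859), of the gene of interferon γ, was open in 16 DN cells (9.14%), 0 of 116 DP, 0 of 96 CD4 and 1 of 91 CD8 cells, and in 0.279% of T-labelled cells. A region 28281 bp downstream was open in 12.0% of DN and at most 4.17% of another sort. The Gzma promoter, of the gene of granzyme A, was open in 9.14% of DN and 5.95% of T-labelled cells. The myeloid and dendritic list gave 2 of 23 peaks (Adgre1 and Cd74), the stroma and epithelium list 1 of 6 (Pdgfra), the DP stage list 2 of 39 (Bcl6 and Slc7a11), the selection and SP list 4 of 51 (3 overlapping peaks at the start of Ikzf2 and the Nr4a1 promoter), the B cell list 0 of 4 and the cell cycle list 0 of 33. The Bcl6 promoter was open in 9.14% of DN and 1.72% of DP sorted cells, but in 12.2% of T-labelled cells.

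Peaks near NK and innate-like genes took a median 0.177% of the counts of a DN cell, with a range of 0.0% to 0.667% and medians of 0.148% in DP, 0.216% in CD4 and 0.193% in CD8 cells. For myeloid and dendritic genes the DN median was 0.138%, beside 0.0977%, 0.13% and 0.116%, and for B cell genes it was 0.0264%, beside 0.0258%, 0.0171% and 0.0269%. Peaks at the defining genes Cd79a, Csf1r and Epcam were open in 2.86%, 1.14% and 4.57% of DN cells. The part of such cells in the results was not tested. Medians of further lists are given for DN, DP, CD4 and CD8 cells in this order. Peaks near early progenitor genes took 0.106%, 0.0851%, 0.0706% and 0.0792%. Those near Notch and pre-T cell receptor genes took 0.215%, 0.354%, 0.212% and 0.286%. For γδ T cell genes the values were 0.102%, 0.118%, 0.0956% and 0.098%. For T identity factors they were 0.9%, 1.09%, 1.27% and 1.23%. Of these lists, DN cells were highest only for the early progenitor genes.

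Motifs were searched as fixed letters on both strands of the central 500 bases. They were TGTGGTT for Runx, CCGGAAGT for Ets, CAGCTG for the first E-box form, CACCTG for the second E-box form, ATCAAAG for Tcf/Lef, TGGGAA for Rbpj, AGATAA for Gata, GAGGAAGT for PU.1, CAACTG for Myb, TGANTCA for AP-1, AGGTGTGA for T-box, AGGTCA for Ror, GGGANTTTC for NF-kB, CCCNNGGG for Ebf and GAAANTGAA for Irf factors. The PU.1 letters share their end with the Ets letters, and a match is a description of the sequence and not a bound site. Since promoters and distal regions differ in base composition, members over 2 kb from a start were set beside the 5344 peaks of the comparison set over 2 kb from a start.

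The E-box form CACCTG, read by E proteins and related factors, was in 250 of 454 members (55.1%, 50.4 to 59.7), against 46.0% of the comparison set and 40.6% of all peaks away from starts. The Runx letters were in 140 members (30.8%, 26.6 to 35.3), against 26.3% and 17.0%. The E-box form CAGCTG was in 43.2% (38.6 to 47.9), against 39.6% and 30.0%. The Tcf/Lef letters were in 32 members (7.05%, 4.87 to 9.8), against 9.94% and 8.65%. Of the 15 motifs, the share of the comparison set lay outside the interval of the members for 3: below it for CACCTG and, by a narrow margin, below it for Runx and above it for Tcf/Lef. The remaining 12 lay inside. These intervals treat peaks as independent, which overlapping members are not, and 15 motifs were looked at.

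**Figure D5:**
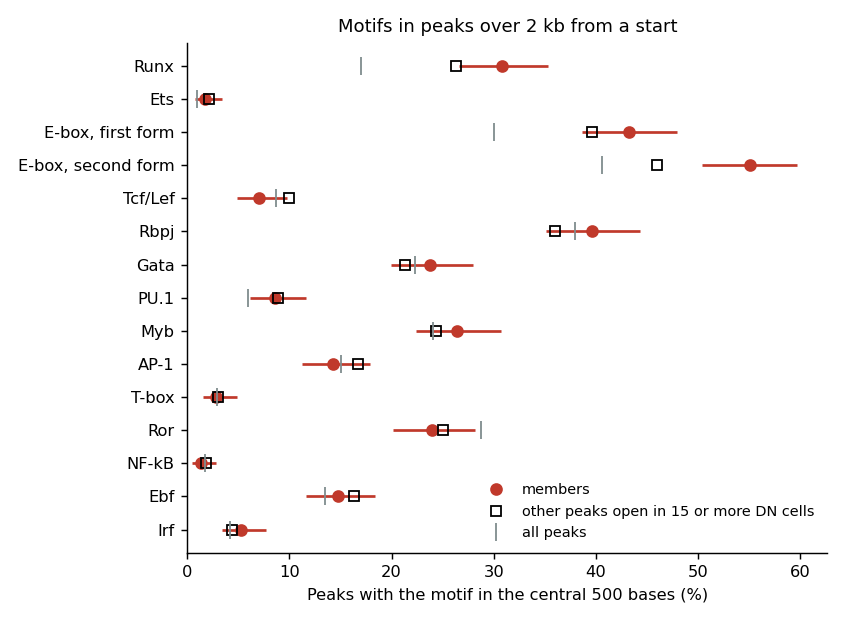
Share of peaks over 2 kb from a start with each motif in the central 500 bases (x axis, %), for 454 members (circles, with exact 95% intervals), 5344 other peaks open in 15 or more DN cells (squares) and all 102418 such peaks (bars). The first E-box form is CAGCTG and the second CACCTG. The second form stands at 55.1% in the members and 46.0% in the other peaks.

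The scRNA-seq library was used to ask whether the genes next to the members differed in RNA between DN-like and DP-like cells. Clustering gave 78 DN-like and 897 DP-like cells among 1993. The DN-like cluster was led by Plac8, Myl10, Crip1, Tcrg-C2, Cdk6 and Tcrg-C1, and it held all 5 of its marker genes above the mean. Of 681 nearest genes of members, 417 were measured once 3 marker genes were left out. Their median difference in mean log2 value, DN-like minus DP-like, was 0.0064, against -0.0002 for 5729 nearest genes of the comparison set. The value was higher in DN-like cells for 231 of the 417 genes (55.4%) and for 49.8% of the others, and it was higher by over 0.5 for 8 (1.92%) and 1.48%. It was lower by over 0.5 for 0.48% and 0.524%. The NCL-like and APC-like classes were set against DP-like cells in the same way. Each also had 8 member genes higher by over 0.5 (1.92%), against 1.13% and 1.29% of the others, a wider gap than for DN-like cells. Genes higher by any amount made up 49.4% of member genes and 42.6% of the others for the NCL-like class. The APC-like class had 46.3% and 43.4%. By this count the gap was wider than for DN-like cells in the NCL-like class and narrower in the APC-like class. A larger share of higher values among member genes was thus not particular to the DN-like class. As 1 library holds no replicate of a class, no test was made.

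The 8 genes, which were picked by this size after their values were seen, were Cmtm7, Naca, Naxd, Zfp36l2, Fam169b, Sox4, Pabpc1 and Pik3ip1. Sox4, an early T lineage factor gene, averaged 1.88 (SD 1.02) on the log2 scale in DN-like and 1.25 (SD 1.12) in DP-like cells. Cmtm7 had 2.12 (SD 0.965) and 0.705 (SD 0.798), the widest gap. Gzma, whose promoter is a member, had 0.722 (SD 0.974) in DN-like cells, 0.467 in NCL-like (NK-like) cells and 0.251 (SD 0.575) in DP-like cells. Stard3nl, next to the γ locus, had 0.392 and 0.0459. Among 11 measured nearest genes of the described regions it had the largest difference (0.35), and the other 10 lay between -0.05 and 0.06.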

How the data were processed

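For scATAC-seq, the authors used ATAC-pipe for trimming, Bowtie2 for mapping, Picard against duplicates and MACS2 on merged cells for peaks, and deposited a table of raw counts (peaks by cells). Versions and the build of this table are not given in the sources used here. GRCm38 was used because 26.0% of peak centers lay within 2 kb of a start, against 7.71% after all peaks were moved far along the chromosome. A peak was open where its count was above 0. Overlapping peaks share reads, so intervals over peaks, such as those of the motif shares, show more precision than there is. Intervals of a share of open cells count cells at 1 peak. Of 1988 cells, 362 were not used here (352 T-labelled without a plate number and 10 of no stated group). Starts came from GENCODE vM21 basic and sequences from RefSeq GRCm38.p6. A region was represented by the overlapping member with the highest DN share, and the 25 with the largest difference to the highest other sort were named, with up to 4 members of each gene list, except 1 region that is not reported here.

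For scRNA-seq, the authors used Cell Ranger 1.3.1 and quantile normalization and deposited log2 values. Clusters were built with Seurat 5.3.0 in R 4.3.3 and named from markers. DP-like cells were the DPre-like and DPsel-like classes. Doublets were not called. Scripts used Python 3.11.15, numpy 2.4.6, pandas 2.3.3, scipy 1.17.1 and pysam 0.24.0, and the choice of members was tested on simulated data. The members and lists were chosen with earlier results of these data known. No test was made.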

Additional observations from a re-analysis of the deposited data

How the results depend on the processing

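The size of the set depended on depth and thresholds. Each number is given out of the peaks that reached the minimum of open DN cells, which was 766 of 14907 in the main choice. With a count of 2 or more as open, 75 of 1110 were chosen (1 shared with the members). After thinning every cell to 1000 counts, 12 of 587 were chosen (2 shared). Without 1 DN label series at a time the number lay between 214 of 8882 (series 1000) and 918 of 13715 (series 31000). It was 488 of 10758 without series 2000 and 450 of 10755 without series 4000. Series 4000 alone gave 4867 of 22529 peaks and series 31000 alone 3299 of 11510, with the minimum of open DN cells scaled to 3 and 2. A ratio of 1.5 gave 1925 and a ratio of 3 gave 249, both of 14907. A minimum of 10 or 25 open DN cells gave 2402 of 26274 or 98 of 6309. The median share in T-labelled cells was 0.558% after thinning, against 0.862% in DP cells, which is 1 open DP cell. The mean shares after thinning had the other order, at 0.958% in T-labelled and 0.674% in DP cells. The share of members at starts was 34.7% within 1 kb, 46.7% within 5 kb and 46.0% with all gene types, against 58.2%, 67.0% and 67.5% of the other peaks. Any motif was found in 95.3% of members and 90.7% of the other peaks open in 15 or more DN cells. In the central 300 bases it was 85.5% against 77.9%, in the central 1000 bases 99.2% against 98.9%, and away from starts, an alternative chosen after seeing the data, 97.6% against 95.7%. When peaks were chosen in thinned cells, the relative openness in the series left out was 0.727 for series 4000 (9 peaks, T-labelled 0.709) and 0.826 for series 32000 (1 peak, T-labelled 0.528), and the T-labelled value was the higher for series 1000 (0.49 against 0.696, 8 peaks) and 31000 (0.396 against 0.761, 7 peaks). A minimum total of 500 or 2000 counts per cell gave 944 of 14988 or 785 of 13742 peaks. Leaving out series 32000 gave 647 of 10092, and 308 of the 647 were members. The alternative with T-labelled cells without a plate number was not run. No paired analysis was possible because no label ties cells of different sorts to 1 animal. Series 4000 and 31000 occur in all sorts and were compared within the series, as values. The causes were not tested. At 175 DN cells, a count of 15 open cells leaves a wide exact interval, from 4.88% to 13.7%. Differences of a few percent between sorts are thus uncertain, and no limit of detection was computed.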
